A study of Mus musculus with 2 samples.

Results

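The genes described here carry glucose into the cell, break it down to lactate and report on the oxygen supply. They were 35 mouse genes chosen by name: 4 hexokinases, 2 glucose transporters, 14 enzymes of glycolysis, 7 genes of pyruvate and lactate handling, 3 of oxygen sensing and 5 that respond to hypoxia. Every spot that was not a control and whose gene name was among the 35 was taken, which gave 55 probes and 64 spots of the 39429 probes and 43020 spots that carried 31826 gene names. All 35 genes had a probe, and 31 were measured, meaning that at least 1 probe was well above background on both arrays.

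The samples were BaF/3 (#BEB1), a variant that binds the peptide Ecrg4, and the parental Ba/F3 cells, an interleukin-3-dependent mouse pro-B line. The variant is 1 clone. It was picked by repeated sorting on an Ecrg4–Fc fusion protein after Ba/F3 cells had been infected with a retroviral cDNA library from CG4, a rat oligodendrocyte precursor line, and the inserts it holds were not read here. Both lines grew in RPMI medium with foetal calf serum and interleukin-3, and the cyanine 3-labelled RNA of each was read on an Agilent mouse expression array. Each line has 1 array and the arrays share a slide, so differences are given as sizes, without p-values.

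The files disagree on which array is which cell line. The array called A here is listed as BaF/3 (#BEB1) in the deposited table of normalised values, whereas GEO holds its scanner output under the parental cells, and array B is the reverse. Across 39429 probes, the Pearson correlation of the table column labelled BaF/3 (#BEB1) was 0.999967 with the parental scanner output and 0.982275 with its own. All differences below are log2 of array A minus array B, so the table reads them as variant minus parental cells and the scanner output as parental cells minus variant. Olr1, the gene cloned from BaF/3 (#BEB1), had signals of 12962 on array A and 289 on array B, a difference of 5.01. The labels of the table put the brighter Olr1 signal in BaF/3 (#BEB1), and those of the scanner output put it in the parental cells. The files alone do not settle the assignment, so no direction between the cell lines is given. Of 14 markers of pro-B and interleukin-3-dependent cells, 6 were measured, and Pax5, Ebf1, Cd79a and Rag1 were among the 8 that did not rise clearly above background.

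Glucose enters blood cells through facilitative transporters, of which GLUT1 (Slc2a1) and GLUT3 (Slc2a3) are the common high-affinity forms, and is trapped inside when a hexokinase adds a phosphate. The glycolytic enzymes then yield pyruvate, which lactate dehydrogenase turns into lactate for export by monocarboxylate transporters, or which enters mitochondria through the pyruvate dehydrogenase complex. When oxygen is scarce, the prolyl hydroxylases encoded by the Egln genes no longer mark the transcription factor subunit encoded by Hif1a for destruction, and its dimer binds short DNA elements near many of these genes and raises their transcription. In interleukin-3-dependent cells the cytokine itself is known to sustain glucose uptake and glycolysis.

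The probes that read the hexokinases are shown because the hexokinase results rest on 1 spot for each probe. Each is 60 bases long, and its first 30 bases are given. The positions are those in the scanner output (mm9, minus strand), namely chr10:61845922-61845981 for Hkdc1, chr10:61731856-61731915 and chr10:61732717-61732776 for Hk1, chr6:82675056-82675115 for Hk2 and chr13:55107900-55107959 for Hk3. Where they lie within exons or untranslated regions was not looked up.
Hkdc1: gtgacacagtaggtgtcgctgttttctgca
Hk1 3′ probe: ggaatctcccatcgctttagtgagccattg
Hk1 5′ probe: aaggaactgtcaccaaagtgtaccgtgtcc
Hk2: tagtgagcgttttgtcatcatgtacagtag
Hk3: aagatctggggctgactctgacatctgatg
The longest run of bases shared by any of the 10 pairs of whole probes was 8, so these probes have no long stretch in common.

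The bases just before the start of the members that were 2-fold or more above array B on array A are shown because the hypoxia-inducible factor binds a short core in such regions. RefSeq (GRCm38.p6) promoter entries were found for 33 of the 35 genes, and none for Ndrg1 and Slc2a3. The 250 bases upstream of the start are printed 5′ to 3′ on the strand of the gene, at chr10:62422458-62422707 (minus) for Hkdc1, chr13:55021386-55021635 (minus) for Hk3, chr4:119108495-119108744 (plus) for Slc2a1 and chr12:73907617-73907866 (plus) for Hif1a. Capitals mark the cores ACGTG and GCGTG on either strand (CACGT and CACGC when read on the other strand).
Hkdc1: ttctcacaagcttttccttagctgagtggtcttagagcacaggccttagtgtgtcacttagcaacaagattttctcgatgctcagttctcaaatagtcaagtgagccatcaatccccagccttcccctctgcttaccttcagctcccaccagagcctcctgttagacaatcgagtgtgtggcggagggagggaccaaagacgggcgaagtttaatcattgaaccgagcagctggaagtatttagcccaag
Hk3: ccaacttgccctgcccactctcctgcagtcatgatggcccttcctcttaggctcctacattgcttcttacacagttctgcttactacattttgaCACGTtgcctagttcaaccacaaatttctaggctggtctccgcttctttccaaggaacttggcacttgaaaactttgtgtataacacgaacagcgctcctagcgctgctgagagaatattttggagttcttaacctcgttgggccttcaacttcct
Slc2a1: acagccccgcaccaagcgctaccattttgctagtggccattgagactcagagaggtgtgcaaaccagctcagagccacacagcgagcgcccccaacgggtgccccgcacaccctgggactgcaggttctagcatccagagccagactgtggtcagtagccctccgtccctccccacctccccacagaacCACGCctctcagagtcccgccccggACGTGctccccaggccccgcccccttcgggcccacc
Hif1a: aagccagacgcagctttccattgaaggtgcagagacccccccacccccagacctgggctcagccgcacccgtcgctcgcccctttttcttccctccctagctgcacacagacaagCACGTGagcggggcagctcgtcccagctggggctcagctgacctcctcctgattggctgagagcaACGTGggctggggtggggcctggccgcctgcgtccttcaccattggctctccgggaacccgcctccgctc
Slc2a1 had CACGC at -61 and ACGTG at -36 (first base of the core, counted back from the start), Hk3 had CACGT at -156, and Hkdc1 had no core in the bases shown. In Hif1a, CACGT at -135 and ACGTG at -134 overlap in the palindrome CACGTG, which is also the E-box bound by Myc-type factors, and a further ACGTG lies at -70. Over the full windows of 300 bases (250 before and 50 after the start), ACGTG was found for 23 of the 33 members (69.7%), against 21.8% of all 27025 genes with an entry, and GCGTG for 22 members (66.7%), against 35.2%. Hkdc1, without a core in the bases shown, was among the members with GCGTG in a full window. Among all 32851 windows, 19.6% held ACGTG and 32.4% GCGTG. The 33 members had 47 windows, and a gene with more windows has more chances of a match. Either core was found for 30 of the 33 members (90.9%), against 46.7% of all genes, so a core does not set the 4 printed genes apart. A match describes letters only and not binding, and the members include known targets of the factor.

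Among the 31 measured members, 5 (16.1%) were brighter on array A by 2-fold or more, and 2 (6.45%) were brighter on array B by as much. Over all 14832 measured genes, these shares were 3.84% (570 genes) for array A and 7.31% (1084 genes) for array B. With this scaling, the members' share was above the background towards array A and close to it towards array B. The members were chosen with earlier results of these data known, so the share describes them and tests nothing. The 5 higher on array A were Hkdc1, Hk3, Ndrg1, Hif1a and Slc2a1, and the 2 higher on array B were Egln1 and Eno3. The median difference of the members was 0.03, with 16 above 0 and 15 below, against -0.02 for all measured genes. With each array scaled to its median, which shifts every difference by 0.29, 20 members were above 0 (68.9% of all measured genes were), and with scaling to the spike-in probes, which shifts them by 0.91, 29 were (91.2% of all). With median scaling, 5 members passed 2-fold towards array A (8.86% of all genes) and 0 towards array B (3.96%). With spike-in scaling, 13 of the 31 members and 0 did, against 42.4% and 1.17% of all genes, so the share towards array A was then close to the background. The same 5 members passed towards array A with quantile scaling (4.43% of all genes) and normexp background correction (2.6%), and Eno3 alone towards array B (6.17% and 4.77%). Under 1.5-fold lay 20 of the 31 members (64.5%), against 69.9% of all measured genes. Array error, propagated from the scanner software's error of each signal, was between 0.06 and 0.37 on the log2 scale with a median of 0.20. It covers the reading of the arrays only, not the spread between cultures, and the number of arrays limits every value.

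**Figure D1:**
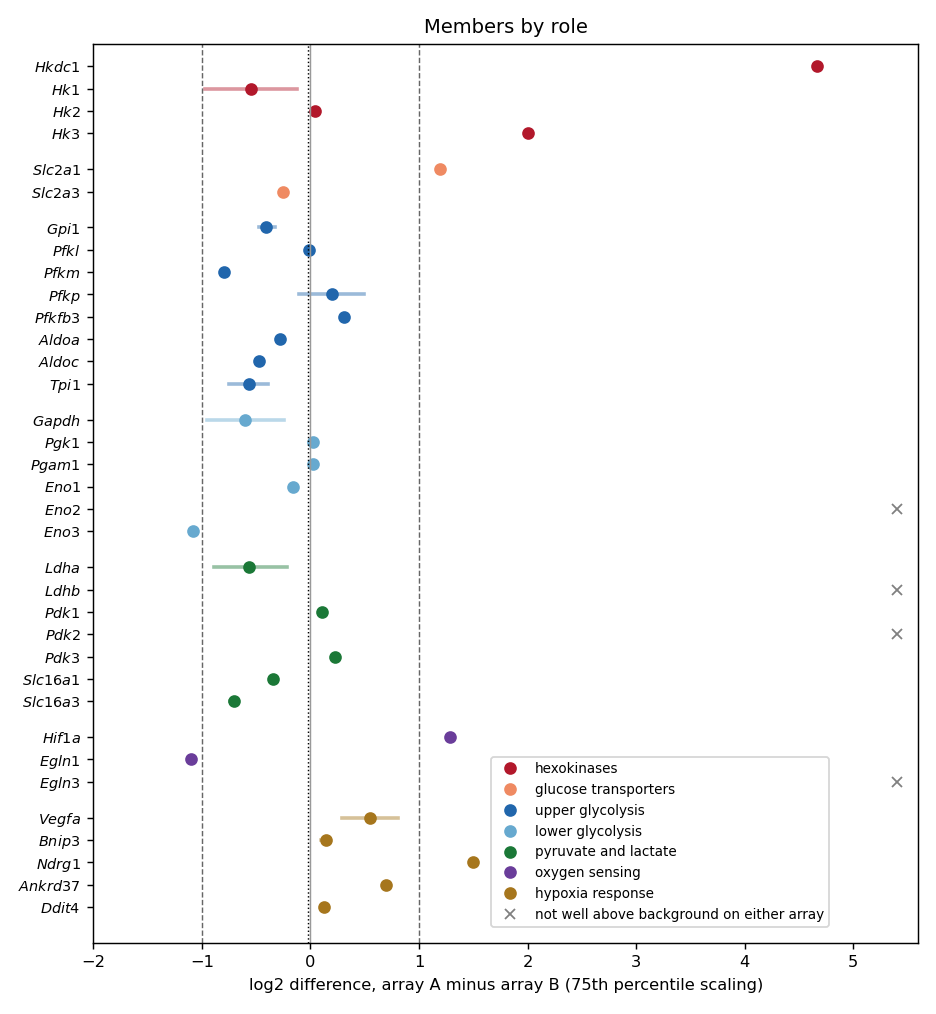
Difference in log2 signal between array A and array B (A minus B, 75th percentile scaling) for each member, grouped and coloured by role, 1 array per cell line. Points are genes and bars span the probes of a gene read by more than 1; dashed lines mark 2-fold, the dotted line the median of all measured genes (-0.02), and crosses the 4 genes that neither array measured; Hkdc1 stands farthest to the right at 4.66, and Egln1 (-1.10) and Eno3 (-1.08) farthest to the left.

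The hexokinases, which add the first phosphate to glucose, were spread more widely than any other role among the members. Hkdc1, a hexokinase domain-containing gene that is the most recently recognised member of the family, had a signal of 1390 on array A and 39.4 on array B. Over the 75th percentile of each array (1506 on array A and 1080 on array B), its log2 level was -0.12 on array A, against -4.78 on array B, a difference of 4.66 with an array error of 0.30, or 25.3-fold. Of the 14832 measured genes, 5 were further towards array A. In bulk RNA, more cells that express a gene and more RNA per cell cannot be told apart. On array B the probe was called well above background but stood near the lowest signal so called there (22.9), so the size of the difference depends on how background is removed. It was 3.14 with normexp background correction and between 4.58 and 5.57 with the other scalings tried.

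Hk3, the hexokinase best known from myeloid cells, had a signal of 7203 on array A, against 1284 on array B. The log2 level was 2.26 on array A, against 0.25 on array B, a 4.02-fold difference (2.01, array error 0.20), and 83 measured genes lay further towards array A. It ranged from 1.93 to 2.92 over the 15 processing settings. Hk2, the insulin- and hypoxia-regulated form, differed by 0.04, with signals of 7056 on array A and 4917 on array B. Its log2 level was 2.23 on array A, against 2.19 on array B, a gap smaller than its array error. The difference turned to -0.04 under bright-probe and quantile scaling, and rose to 0.33 with median and 0.95 with spike-in scaling.

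Hk1, the widely expressed form, differed by -0.55 as the mean of 2 probes that did not read alike. The 3′ probe had 20895 on array A, against 16357 on array B (-0.13), and the probe 861 bp further 5′ had 473 on array A, against 663 on array B (-0.97). With the brightest probe alone Hk1 was thus at -0.13, and with spike-in scaling at 0.36. The median of the 4 hexokinases was 1.03, with Hkdc1 and Hk3 past 2-fold towards array A and neither of the others past it. Hkdc1 and Hk1 are neighbours on chromosome 10, with the 3′ probe of Hk1 114 kb from that of Hkdc1, yet their differences had opposite signs under this scaling.

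**Figure D2:**
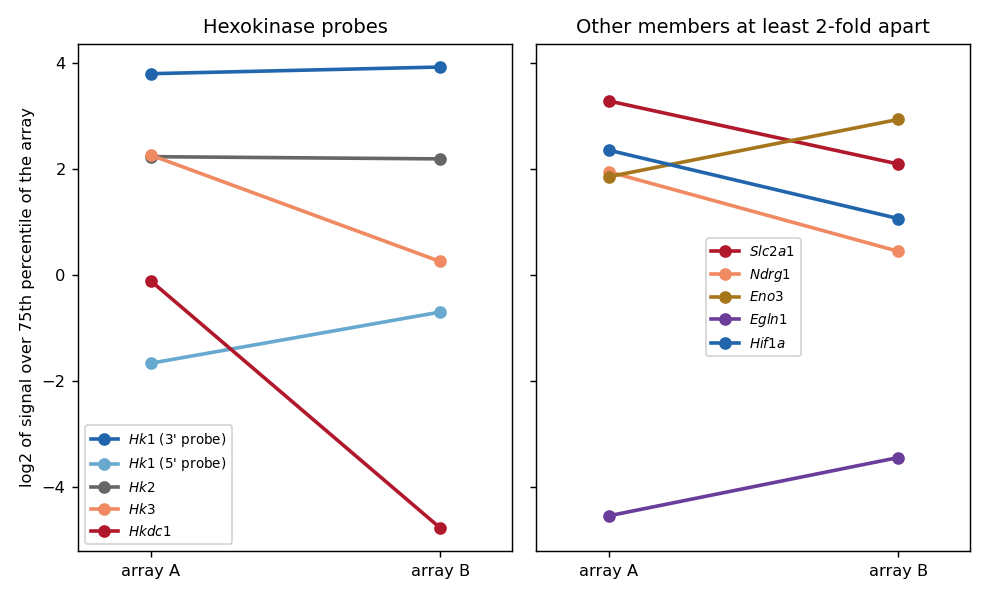
Log2 signal, scaled to the 75th percentile, on array A (left of each panel) and array B (right), 1 line per probe and 1 array per cell line; left panel hexokinase probes, right panel the other members at least 2-fold apart. Only the slope of a line is compared, since probes differ in brightness; Hkdc1 has the steepest slope (-0.12 on array A and -4.78 on array B), Hk2 and the 3′ probe of Hk1 are close to level, and Eno3 and Egln1 slope the other way.

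Of the glucose transporters, Slc2a1, which encodes GLUT1, was higher on array A, with a signal of 14630 against 4599 on array B. The difference was 1.19 (2.28-fold, array error 0.20), it lay between 1.11 and 2.10 over the processing settings, and 344 measured genes lay further towards array A. Slc2a3, which encodes GLUT3, had 21057 on array A and 17939 on array B, a difference of -0.25 that turned to 0.04 with median scaling and to 0.66 with spike-in scaling. The 2 common transporters of blood cells therefore did not move together on these arrays.

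In the upper part of glycolysis, from glucose phosphate to the triose phosphates, no measured gene was 2-fold apart with 75th percentile scaling. With spike-in scaling, Pfkfb3 (1.22) and Pfkp (1.11) were, towards array A, as were 42.4% of all measured genes. With the 75th percentile, the differences of the 8 genes ran from -0.80 to 0.31. Pfkm, the muscle-type phosphofructokinase, was the lowest. It was read at 10 spots, with unscaled signals between 1221 and 1404 on array A and between 1613 and 1737 on array B, and the SD of its log2 signal over the 10 spots was 0.06 for array A and 0.03 for array B. These spots are repeats on the same array and not replicate cultures, and the difference of Pfkm turned to 0.11 with spike-in scaling. The other phosphofructokinases, which catalyse the main regulated step, stood at -0.01 (Pfkl, liver type) and 0.20 (Pfkp, platelet type), where the probes of Pfkp gave -0.11 and 0.50. Pfkfb3, which makes the activator of that step, was at 0.31 by 1 probe, and its other probe was not well above background on either array. Gpi1, the isomerase between the 2 phosphorylations, was at -0.41, the aldolases Aldoa and Aldoc at -0.28 and -0.48 (-0.20 and -0.34 with quantile scaling), and the triose phosphate isomerase Tpi1 at -0.57.

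In the lower part, which yields ATP and pyruvate, Eno3 stood apart. Eno3, the muscle-type enolase, had a signal of 5427 on array A and 8236 on array B, log2 levels of 1.85 and 2.93 on arrays A and B, and a difference of -1.08 (2.12-fold higher on array B, array error 0.20). Eno3 was read by 1 probe at 1 spot, so settings for filters, the floor, naming or averaging of probes only repeat its value. It stayed at least 2-fold apart with bright-probe scaling (-1.16), quantile scaling (-1.16), normexp (-1.08) and in the deposited table (-1.06). It fell short with median scaling (-0.79) and spike-in scaling (-0.17). The widely used enolase Eno1 was at -0.16, with 107573 on array A, against 86311 on array B, and the neuronal form Eno2 was not well above background on either array. Pgk1 and Pgam1, phosphoglycerate kinase and mutase, were both at 0.03. Gapdh, whose enzyme reduces NAD, was at -0.60 over 7 probes that ran from -0.95 to -0.24. The mouse genome holds many processed copies of Gapdh and 1 of its probes was placed on chromosome 8 rather than 6, so that probe may also read other copies.

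Of the 13 measured glycolytic enzymes outside the hexokinases, 9 were below 0 and 4 above, with a median of -0.28, but with median scaling 6 were below 0 and 7 above, and with spike-in scaling 1 was below and 12 above. Against the median of all measured genes, which moves with any such shift, 5 of the 13 were above and the others below.

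Of the measured genes that steer pyruvate to lactate or to mitochondria, none was 2-fold apart. Ldha, the lactate-forming dehydrogenase subunit, was at -0.56 over 3 probes from -0.88 to -0.22, and Ldhb, the subunit of the heart-type enzyme, was not well above background on either array. Pdk1 and Pdk3, kinases that switch off pyruvate dehydrogenase, were at 0.11 and 0.22, and Pdk2 was not well above background, with its brighter probe at 27.4 on array A, against 22.8 on array B. The lactate exporter Slc16a3 (MCT4) was at -0.70 with 2 probes that gave -0.67 and -0.74, and these probes overlap in all but 7 bases. Slc16a1 (MCT1) was dim, with 42.3 on array A, against 38.5 on array B, and its difference of -0.34 was smaller than its array error of 0.37. Slc16a1 changed sign with spike-in scaling (0.57), as did Ldha (0.35) and Slc16a3 (0.21). Pdk1 (1.02) and Pdk3 (1.13) passed 2-fold towards array A with that scaling, as did 42.4% of all measured genes.

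The oxygen-sensing genes differed in opposite directions. Hif1a, the oxygen-regulated subunit of the hypoxia-inducible factor, had a signal of 7682 on array A and 2253 on array B, log2 levels of 2.35 and 1.06 on arrays A and B, and a difference of 1.29 (2.45-fold, array error 0.20). It stayed past 2-fold in each of the scalings tried, between 1.21 and 2.20, and the other settings could not change its single probe. Egln1, the main prolyl hydroxylase that acts on that subunit, was dim and had 64.2 on array A and 98.7 on array B, a difference of -1.10 (array error 0.30). Egln1 was read by 1 probe at 1 spot, so settings for filters, the floor, naming or averaging of probes only repeat its value. It stayed 2-fold apart with bright-probe scaling (-1.18) and in the deposited table (-1.08). It fell short with median scaling (-0.81), quantile scaling (-0.85), normexp (-0.77) and spike-in scaling (-0.19). Egln3, a hydroxylase gene that is itself induced by hypoxia, was not well above background on either array. The arrays read mRNA, and the protein of Hif1a, through which oxygen acts, was not measured.

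All 5 hypoxia-response genes were above 0 in each of the scalings tried, with a median of 0.55. Under the scaling that gave this median, 48.6% of all measured genes were above 0. That share was 68.9% with median scaling and 91.2% with spike-in scaling, where a value above 0 says less. With quantile scaling, Ddit4 was at 0.04, close to the median of 0.03 for all measured genes. Ndrg1, a stress-response gene used as a hypoxia marker, was the farthest, with 5793 on array A and 1468 on array B (2.83-fold, array error 0.20 on the log2 scale), and its log2 difference ranged from 1.42 to 2.41. Ankrd37, a small ankyrin repeat gene, had 3223 on array A and 1429 on array B (0.69). Vegfa, the endothelial growth factor, was at 0.55, with 0.81 by its 3′ probe and 0.29 by its 5′ probe. Bnip3, a mitophagy receptor (0.14, 3 probes from 0.10 to 0.18), and Ddit4, an inhibitor of mTOR signalling (0.13), differed by less than the median array error of 0.20.

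**Figure D3:**
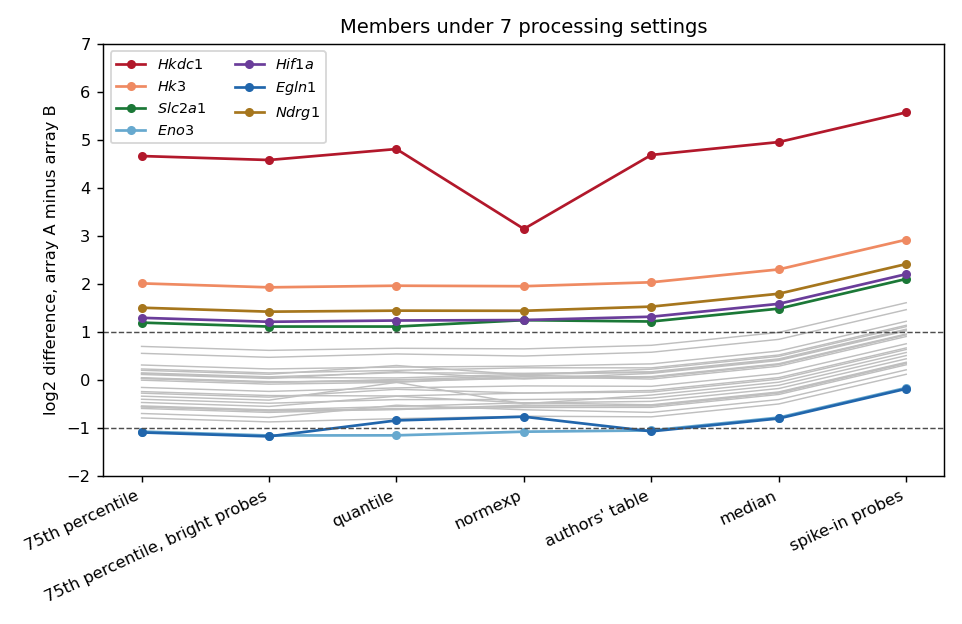
Difference in log2 signal (array A minus array B) for the 31 measured members under 7 processing settings, 1 line per gene; the 7 genes at least 2-fold apart are coloured, the others grey, and dashed lines mark 2-fold. Median and spike-in scaling move every gene upwards; Hkdc1, Hk3, Ndrg1, Hif1a and Slc2a1 lie above the upper line throughout, whereas Eno3 and Egln1 cross the lower line.

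Among 9 measured members read by more than 1 measured probe, 6 had probes at least 500 bp apart in the genome. In 5 of them the most 5′ probe had a lower difference than the most 3′ probe, by 0.84 for Hk1, 0.67 for Ldha, 0.52 for Vegfa, 0.45 for Gapdh and 0.36 for Tpi1. In Ldha the differences were -0.22, -0.58 and -0.88 at 0, 3643 and 7927 bp from the most 3′ probe. Pfkp went the other way, with its 5′ probe 0.60 higher. Over all 2296 measured genes with probes that far apart, 1345 (58.6%) had a lower difference at the 5′ probe, with a median 5′ minus 3′ of -0.11, against 334 of 818 (40.8%) and a median of 0.04 where probes were closer. A lower difference at the 5′ probe was therefore not limited to these genes. It also went with brightness. Where the 5′ probe was dimmer than the 3′ probe on array B, 1022 of 1605 genes (63.7%) had it, against 323 of 691 (46.7%) where it was brighter. The 5′ probe was the dimmer in Hk1, Ldha, Vegfa, Gapdh and Tpi1 and the brighter in Pfkp, so distance and brightness cannot be told apart in these members. The part of either in the negative values of Gapdh, Ldha, Tpi1 and Hk1 was not tested.

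**Figure D4:**
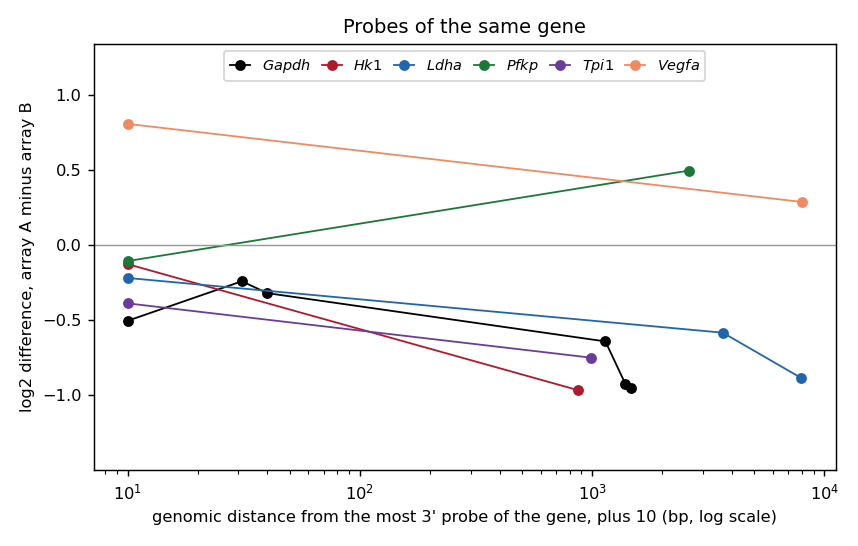
Difference in log2 signal (array A minus array B) for each measured probe against its genomic distance, introns included, from the most 3′ probe of the gene (bp plus 10, log scale), for the 6 members with probes at least 500 bp apart; lines join probes of a gene. Hk1, Ldha, Tpi1, Vegfa and Gapdh end lower at the 5′ probe on the right, Ldha at -0.88, and Pfkp ends higher at 0.50.

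The pathways around the members were described by 7 lists of related genes. Of the other glucose transporters and glycolytic enzymes, 15 of 29 with a probe were measured, with a median of -0.60. Below 0 were 12 of these 15, against 7619 of all 14832 measured genes. Past 2-fold were 1 towards array A and 5 towards array B, where the shares over all measured genes were 3.84% towards array A and 7.31% towards array B. Higher on array B were Slc2a9, a urate and hexose transporter (-1.61), Ldhc, the testis lactate dehydrogenase (-1.56, at signals of 53.1 on array A and 112 on array B), Slc2a8, an intracellular glucose transporter (-1.43), and Bpgm, which makes the regulator of haemoglobin (-1.35). With normexp these 4 stayed at least 2-fold apart, between -1.04 and -1.44, and with spike-in scaling none did. The median was 0.31 with spike-in scaling. The gene higher on array A was 9630033F20Rik (1.16), which RefSeq now calls Tigar and which is known to divert sugar away from glycolysis, and it fell just short with normexp (0.96).

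Of 17 measured genes of gluconeogenesis and glycogen, 0 passed 2-fold towards array A (3.84% of all measured genes) and 4 towards array B (7.31%), and the median of -0.24 turned to 0.05 with median scaling and 0.67 with spike-in scaling. Those 4 were the glycogen phosphorylases Pygb (-1.77) and Pygm (-1.18), the gluconeogenic bisphosphatase Fbp1 (-1.42, at signals of 39.3 on array A, against 75.4 on array B) and the glucose phosphate carrier Slc37a4 (-1.03). Pygb stayed 2-fold apart with median scaling (-1.48) and normexp (-1.67) but not with spike-in scaling (-0.86). Fbp1 did so with median scaling (-1.13) but not with normexp (-0.73) or spike-in scaling (-0.51). In the pentose phosphate pathway, 13 genes were measured with a median of -0.34 (0.57 with spike-in scaling), and G6pd2 (-1.16) and the transaldolase Taldo1 (-1.01) were 2-fold higher on array B, both falling short with median scaling (-0.87 and -0.72). G6pd2 closely resembles G6pdx, so its probe may read both.

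Genes of pyruvate entry and the citrate cycle had a positive median of 0.29 over 31 measured genes, with 23 above 0, against 48.6% of all measured genes above 0. Dld, a shared subunit of the pyruvate and oxoglutarate dehydrogenases, passed 2-fold towards array A (1.12, with 18898 on array A and 6387 on array B). Aco1, the cytosolic aconitase, was not well above background on array A and had a signal of 83.0 on array B, higher there by at least 4.19-fold. Of 15 other oxygen-sensing and HIF-complex genes, none was 2-fold apart (median 0.09). The other hypoxia-induced genes had a median of 0.18 over 24 measured, with 15 above 0. Nampt, which makes NAD, was higher on array A (1.16), and Angptl4, a lipase inhibitor (-1.54), and Ccng2, a cyclin (-1.23), were higher on array B. Known hypoxia-induced genes thus lay on both sides. Among 23 measured regulators of glucose metabolism the median was -0.09 (0.20 with median scaling), with Mlx, the partner of the glucose sensor Mondo (1.20), higher on array A and the kinase subunit Pik3cd (-1.80) higher on array B.

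**Figure D5:**
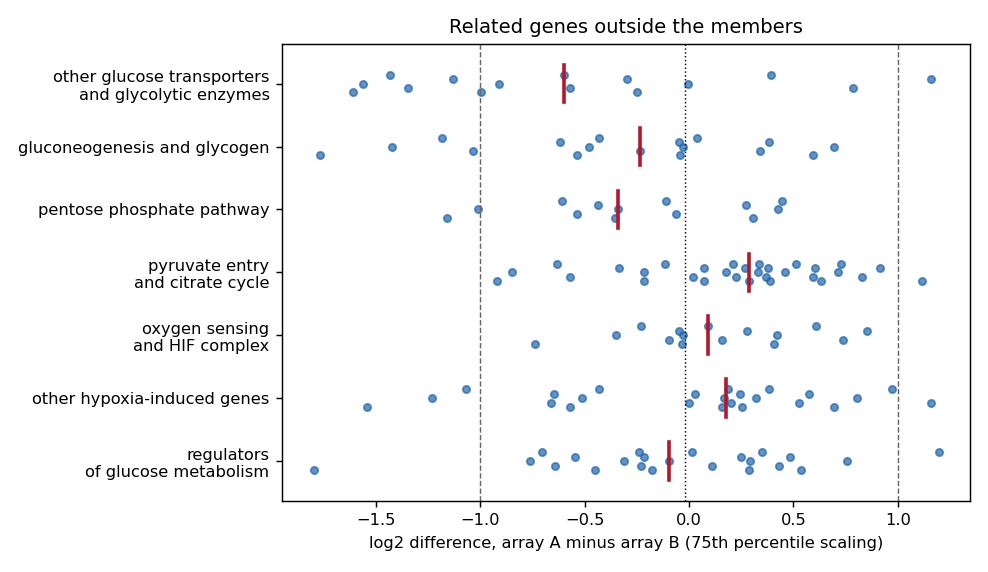
Difference in log2 signal (array A minus array B, 75th percentile scaling) for the measured genes of 7 related lists, 1 point per gene, spread vertically for legibility; red bars are list medians, dashed lines 2-fold, the dotted line the median of all measured genes (-0.02). The medians run from -0.60 for other glucose transporters and glycolytic enzymes to 0.29 for pyruvate entry and citrate cycle.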

How the data were processed

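Per the labels and the study's methods, cyanine 3-labelled cRNA of each cell line was read on 1 Agilent 4 × 44K array. The deposited scanner intensity (processed signal of Feature Extraction 9.5.1.1) is background-subtracted and linear. The deposited table gives log2 values for which the authors set signals below 1.0 to 1.0 and divided each array by its 75th percentile. The same steps were applied here to the deposited intensity, over non-control spots, with outlier-marked spots left out (170 on array A and 158 on array B, none of a member). The deposited marks of the scanner software for spots well above background, saturated or outlying are other values and were used as filters. No spot was saturated. Array A had 19476 probes well above background (49.4%), array B 19656 (49.9%).

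The value of a gene is the mean log2 difference of its probes well above background on both arrays. A gene bright on 1 array only has a bound, set on the dim array by the faintest probe called well above background there, or by its own signal if higher. The median of the table's column was -5.45 for array A and -5.21 for array B, on the same log2 scale and uncentred.

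With 1 array per cell line there was no test. The members and lists were chosen with earlier results of these data known. All members are named, with full values for hexokinases and genes at least 2-fold apart. Of each related list, up to 4 genes at least 2-fold apart in each direction are named, and not every gene taken by this rule is reported here. Alternatives were 15 set out in the plan and scaling to the spike-in probes, added after the data were seen. Python 3.11.15, numpy 2.4.6, pandas 2.3.3, matplotlib 3.10.9, and R 4.3.3 with limma 3.58.1 (normexp offset 50, quantile scaling) were used. The steps were tested on simulated arrays with changes placed in bright genes only, which does not cover the dim members. Gene names are those of the array design. Promoter sequences are from RefSeq (GRCm38.p6).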

Additional observations from a re-analysis of the deposited data

How the results depend on the processing

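Of 434 member differences recomputed over 14 alternatives, 72 moved by more than the array error, most with scaling to the spike-in probes (31) or to the median (28). The other 362 moved by less, but many of them could not move. No member spot carried an outlier mark, and 22 of the 31 measured members were read by 1 measured probe. Outlier, RefSeq naming, floor, bound and median-over-probes alternatives each moved 0, so the 362 do not measure stability. No member that was 2-fold apart changed sign. With median scaling, no member was 2-fold higher on array B, and the median was 0.32 for the members and 1.32 for the hexokinases. Of the 138 measured list genes, 14 then passed 2-fold towards array A and 8 towards array B (8.86% and 3.96% of all measured genes). With the 75th percentile, 4 and 15 did (3.84% and 7.31% of all). The median signal, 32.6 for array A and 28.6 for array B, lies near background. With spike-in scaling, 13 members and 63 list genes passed 2-fold towards array A (42.4% of all measured genes), and 0 of either towards array B (1.17% of all). The medians were 0.94 for the members and 1.94 for the hexokinases. All measured genes then had a median of 0.89. The log2 signal of the 8 spike-in probes used differed by -0.43 on average, against 0.48 for the 75th percentile of all spots. Single spike-in probes ran from -0.58 to 0.01, so the shift of this scaling is itself inexact. Which scaling reflects the cells was not tested. Quantile scaling and normexp each left 1 member (Eno3) 2-fold higher on array B (6.17% and 4.77% of all measured genes), and normexp left 9 list genes there. Without a filter on dim probes, 7 of 182 list genes were 2-fold higher on array A (4.71% of all genes). At 1.5-fold, 6 members passed towards array A (12.5% of all measured genes did) and 5 towards array B (17.6% of all), with 21 and 29 of the 138 list genes. At 3-fold, 2 members (Hkdc1 and Hk3) passed towards array A (1.05% of all) and 0 towards array B (2.25% of all), with 0 and 3 list genes. With quantile scaling, the split of members was 14 above 0 and 17 below. No paired analysis was possible because there was 1 array per cell line. Signals near background limit Hkdc1 on array B, Egln1 and Slc16a1, and 4 members could not be compared at all.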

Other observations

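Some genes of pyruvate entry and the citrate cycle were picked out here after their values were seen, so they describe those genes only. Over all measured genes, 48.6% were above 0, and 91.2% with spike-in scaling. The mitochondrial pyruvate carrier genes Brp44l and Brp44 (now Mpc1 and Mpc2) were at 0.60 and 0.71. Of the pyruvate dehydrogenase complex, the E1 subunits Pdha1 and Pdhb were at 0.63 and 0.73, Dlat at 0.37, Dld at 1.12 and the binding protein Pdhx at 0.46, and the E1 subunit Pdha2 was not measured on either array. The isocitrate dehydrogenases that use NADP were at -0.92 (Idh1) and -0.85 (Idh2), and with spike-in scaling at -0.01 and 0.06. The malate dehydrogenases Mdh1 (-0.57) and Mdh2 (-0.34) turned to 0.34 and 0.58 with that scaling. Each is 1 comparison of 1 array with another.

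Within 250 kb of the Hkdc1 probe, a window chosen after the data were seen, 13 other genes had a probe and 9 were measured. Their probes differed by between -0.97 and 0.56, and none of the 9 genes was 2-fold apart. Srgn, the proteoglycan of blood cell granules, had 169012 for array A and 87717 for array B (0.47), and Supv3l1, on the same side and 46.6 kb away, was at 0.33. Between Hk1 and Hkdc1, 2210417K05Rik was not well above background on array A (5.96) and had 107 on array B, at least 5.39-fold higher there.

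Of 14 pro-B and interleukin-3 response markers with a probe, 6 were measured, and 4 passed 2-fold towards array B (7.31% of all measured genes). These were Csf2rb (-1.86), Csf2rb2 (-1.60), Cd79b (-2.30) and Vpreb1 (-1.39). Csf2rb encodes the beta chain that the interleukin-3 receptor shares with other receptors, and Csf2rb2 its interleukin-3-specific counterpart in the mouse. Il3ra (0.40) and Ptprc (0.75) were not apart. With spike-in scaling, Csf2rb (-0.95), Csf2rb2 (-0.69) and Vpreb1 (-0.48) fell short, and Cd79b stayed past 2-fold (-1.39). Il3ra (1.31) and Ptprc (1.66) then passed 2-fold towards array A, as did 42.4% of all measured genes. The 8 markers not measured, among them Pax5, Ebf1, Cd79a and Rag1, stayed near background on both arrays. Over the 75th percentile, the signal of the list summed to 131 for array A and 287 for array B, of which Csf2rb and Csf2rb2 held 111 for array A and 272 for array B. The other 12 genes summed to 19.4 for array A, against 14.8 for array B. Of 10 macrophage markers, 4 were measured (summed 1.77 on array A and 1.48 on array B). Emr1 held 1.45 of the macrophage sum for array A and 0.89 for array B. It differed by 0.90, whereas Csf1r (-0.46), Cd68 (-1.26) and Mpeg1 (-0.93) were below 0, with a list median of -0.70. Lyz2 was well above background for array B only. Of 8 oligodendrocyte precursor markers, 3 were measured (summed 0.99 and 1.77 on arrays A and B). Of 6 fibroblast markers, none was measured on both arrays. The part of these genes in the differences of the glucose and hypoxia genes was not tested.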
